A study of Homo sapiens with 11 samples.

Results

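FBXO32 and 8 further genes of the FOXO type were followed over all 9 treatment groups of a study of estrogen signalling in the established breast cancer line T47D. Every probe set annotated to exactly 1 of the symbols FBXO32, CCNG2, TXNIP, BCL6, KLF9, PIK3IP1, SESN3, FOXO1 and FOXO3 was taken. This gave 40 of the 54613 probe sets tested, and 9 of 19775 named genes. FBXO32 and SESN3 had 7 probe sets each, CCNG2 and KLF9 had 5 each, FOXO3 had 4, and TXNIP, BCL6, PIK3IP1 and FOXO1 had 3 each. The genes were chosen by their difference between E2-BSA and control, so for that comparison their values are a description, and no test of it is used as support.

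FOXO1 and FOXO3 are forkhead transcription factors that act at the end of the insulin, PI3K and AKT pathway. AKT phosphorylates them, 14-3-3 proteins hold them in the cytoplasm, and withdrawal of growth factors lets them enter the nucleus and switch on genes of growth arrest, stress defence and protein breakdown. FBXO32, also called atrogin-1, is the substrate-recognition subunit of an SCF ubiquitin ligase and a classic FOXO target in wasting muscle; CCNG2 is an unconventional cyclin linked to cell cycle arrest and is also repressed by the estrogen receptor in breast cancer cells.

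Cells first spent 4 h in a medium whose serum (10%) had been stripped of steroids with charcoal, and were then treated in it for 3 h. There were 2 arrays of untreated control and 2 of E2-BSA, a conjugate of estradiol with bovine serum albumin, and 1 array of every other group. Estradiol, E2-BSA and the carrier BSA were given at 1 µM, ICI and G15 at 10 µM, and ethanol at 0.1%. E2-BSA was also given together with ICI and together with G15. ICI and G15 are called antagonists in the labels; G15 is known to block the estrogen-binding receptor GPER1, and ICI is named there by the abbreviation alone. Nothing in the labels ties the replicate arrays to separate cultures. The p-values therefore measure only a spread among the control and E2-BSA arrays, which may be technical. The small number of arrays limits the precision. The whole study is 1 cell line.

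Each deposited value was a log2 value centred for its probe set, so a value shows how an array stood against the others and never how abundant a transcript was. Luminal and other cell type markers therefore could not be checked for their levels, and no gene's level is compared with that of another gene. The arrays fell into a smaller set (control 1, E2-BSA 1 and estradiol) and a larger set with the other 8. The split was read from the control probe sets for 18S ribosomal RNA, which lay at 1.43 to 1.60 in the smaller set and -0.38 to 0.15 in the larger. The first principal component, with 71.0% of the variance, separated the same arrays. For ACTB, the 5′ probe set minus the 3′ probe set lay at 0.65 to 0.79 against -0.37 to 0.00. All differences below were taken within a set or fitted with the set as a block. Estradiol lay in the smaller set, and ethanol and BSA in the larger, so estradiol was compared with control and not with ethanol.

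Promoter sequences were looked up because the genes share a name as FOXO targets and because CCNG2 moved with some of the FBXO32 probe sets. RefSeq windows on GRCh38.p14, from 250 bases before to 50 bases after a gene's start, were at hand for 8 of the 9 genes, 14 windows in all. FBXO32 was the gene without a window, so its promoter was not searched for any motif. The FOXO motif GTAAACA, searched on both strands, was in windows of TXNIP and PIK3IP1, and in 3.42% of all 35116 windows. The E-box CACGTG was in the window of CCNG2 and in 7.26% of all windows. The full estrogen response element GGTCANNNTGACC was in none of the 14 windows and in 0.0570% of all. The motifs do not overlap each other in these windows. A match describes the letters only. The stretches below are the 250 bases before the start, 5′ to 3′ on the gene's own strand, for CCNG2 and for the member with a FOXO motif upstream. Capitals mark the E-box of CCNG2, which begins 30 bases before the start of the gene, and the FOXO motif of TXNIP, which begins 124 bases before its start.
CCNG2 chr4:77156957-77157206, plus strand: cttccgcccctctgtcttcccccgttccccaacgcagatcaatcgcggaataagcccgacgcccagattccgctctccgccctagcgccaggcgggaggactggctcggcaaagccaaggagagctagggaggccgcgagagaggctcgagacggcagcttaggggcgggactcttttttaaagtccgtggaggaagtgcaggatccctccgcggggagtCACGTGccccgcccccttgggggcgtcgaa
TXNIP chr1:145996580-145996829, minus strand: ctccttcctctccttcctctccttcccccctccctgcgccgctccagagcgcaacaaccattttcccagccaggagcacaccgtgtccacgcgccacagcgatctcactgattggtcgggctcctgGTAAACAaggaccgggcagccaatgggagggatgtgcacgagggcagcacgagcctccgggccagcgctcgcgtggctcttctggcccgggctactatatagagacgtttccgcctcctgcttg

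By 3 of its 7 probe sets, FBXO32 was lower on every array with estradiol or E2-BSA than on any other array of the same set. The arrays of control and of E2-BSA alone are among those that the choice of the genes used. For 225328_at, control 1 stood at 1.20, E2-BSA 1 at 0.56 and estradiol at 0.56 in the smaller set. In the larger set control 2 stood at -0.11, ethanol at -0.06, BSA at 0.06, ICI at -0.21, G15 at -0.35, E2-BSA 2 at -0.96, E2-BSA with ICI at -0.60 and E2-BSA with G15 at -1.25. In each set all arrays with estradiol or E2-BSA lay below all arrays without, with no overlap. How many of all probe sets separate in this way was not counted, so nothing is read from the lack of overlap. From the highest value down, the order in the larger set was BSA, ethanol, control, ICI, G15, E2-BSA with ICI, E2-BSA and E2-BSA with G15. Each condition had 1 array in that set, so neighbours in this order had no spread of their own to be compared with.

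**Figure D1:**
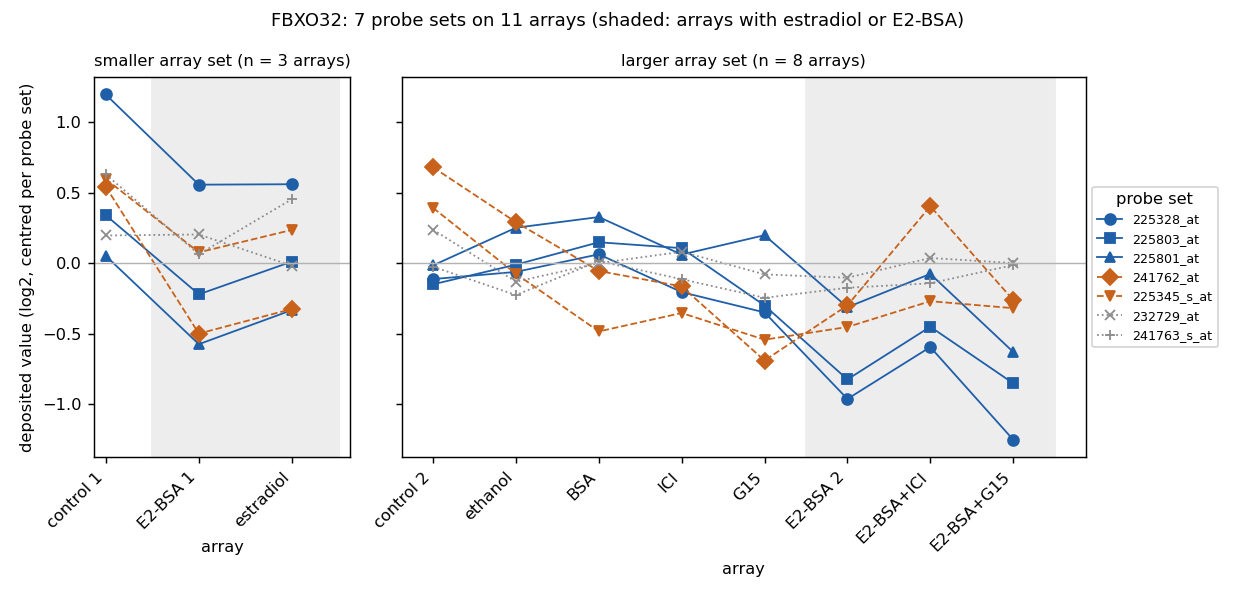
FBXO32 on the 11 arrays. The vertical axis gives the deposited centred log2 value, the horizontal axis the arrays of the smaller set (left) and of the larger set (right), and each symbol is 1 probe set; lines only join the values of a probe set, and grey shading marks the arrays with estradiol or E2-BSA. The 3 blue probe sets are low on the shaded arrays, from -0.08 to -1.25 in the larger set, whereas for the orange ones, 241762_at and 225345_s_at, shaded and unshaded arrays overlap and G15 is the lowest array of the larger set.

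The comparison whose difference the choice of genes did not use asked whether E2-BSA had an effect on cells that also received an antagonist. It took the mean of E2-BSA with ICI minus ICI and of E2-BSA with G15 minus G15, on 4 arrays. The 7 FBXO32 probe sets ran from -0.65 to 0.50 with a median of 0.02, and 3 of them were negative. The lowest, 225328_at, fell by 0.65 ± 0.12 (SE) on the log2 scale, which is 1.56-fold (95% interval -0.91 to -0.38, limma adjusted p = 0.0386). It was lower in both pairs, by -0.39 with ICI and -0.90 with G15. Of the 40 probe sets of the 9 genes this was the only call, where 0.546% of all probe sets were called and 0.0366% were called lower. The spread behind this test came wholly from the control and E2-BSA arrays that the choice of the genes used, the only groups with more than 1 array, and was shared over all probe sets. The adjusted p was 0.194 when these 4 arrays were fitted alone and 1 without the array set as a block. The call therefore depends on the arrays that chose the genes, although the difference itself does not.

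Another pair of FBXO32 probe sets stood close behind. For 225803_at the values were 0.11 with ICI, -0.45 with E2-BSA and ICI, -0.30 with G15 and -0.85 with E2-BSA and G15, a difference of -0.55 ± 0.12 (SE, adjusted p = 0.0698). For 225801_at they were 0.06, -0.08, 0.20 and -0.63 in the same order, a difference of -0.48 ± 0.13 (SE, adjusted p = 0.147). For both, each array with E2-BSA lay below both arrays without it. With so few arrays, and no count of how many of all probe sets do the same, this order is a description only. After the mean of each array set was removed, the values of the 3 probe sets had Pearson correlations of 0.892 to 0.951 with each other over the 11 arrays, which are given as a description.

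The probe sets 241762_at and 225345_s_at, annotated to the same gene, gave a different picture. For 241762_at the smaller set gave 0.54 for control 1, -0.50 for E2-BSA 1 and -0.32 for estradiol. The larger set gave 0.68 for control 2, 0.29 for ethanol, -0.06 for BSA, -0.17 for ICI, -0.69 for G15, -0.30 for E2-BSA 2, 0.40 for E2-BSA with ICI and -0.26 for E2-BSA with G15. Both controls were thus the highest arrays of their sets, G15 alone was the lowest array of all, and arrays with and without hormone overlapped. E2-BSA minus BSA, 1 array each in the larger set, was -0.24 for 241762_at and 0.03 for 225345_s_at, against -1.03 for 225328_at, -0.97 for 225803_at and -0.64 for 225801_at. In that pair 225328_at was the only one of the 40 probe sets to differ by 1 or more in size on the log2 scale, where 0.139% of all probe sets did; E2-BSA 2 was used in choosing the genes, so this is a description and nothing is read from that share. Over the antagonists, 241762_at had the opposite sign, 0.50 ± 0.12 (SE, adjusted p = 0.0996), and 225345_s_at gave 0.15 ± 0.13 (SE, adjusted p = 0.815). Their correlation with each other over the 11 arrays was 0.868 after removal of the set means, and 0.198 to 0.484 with the 3 probe sets above. Where the probes lie in the transcript was not used here, and the cause of the disagreement was not tested. The last FBXO32 probe sets, 232729_at and 241763_s_at, gave 0.02 and 0.10 over the antagonists, with standard errors of 0.13.

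CCNG2 was lower with E2-BSA on the arrays without an antagonist, which the choice of the genes used, and on the array with G15. With ICI its probe sets differed from their antagonist control by -0.22 to 0.27. The test of a difference between the antagonists, given below, called no probe set. For 228081_at the smaller set gave -0.01 for control 1, -0.85 for E2-BSA 1 and -0.74 for estradiol. The larger set gave 0.32 for control 2, 0.21 for ethanol, 0.35 for BSA, 0.35 for ICI, 0.27 for G15, -0.46 for E2-BSA 2, 0.14 for E2-BSA with ICI and -0.37 for E2-BSA with G15. All arrays with hormone lay below all arrays without it in the same set, and E2-BSA with ICI lay nearest to the untreated ones. As for FBXO32, the share of all probe sets that separate so was not counted, and this is a description only. For 202770_s_at, E2-BSA with ICI stood at -0.19 and ICI at -0.06, and E2-BSA with G15 stood at -0.90 and G15 at -0.24. E2-BSA with ICI thus lay above G15, and the arrays with and without hormone overlapped.

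**Figure D2:**
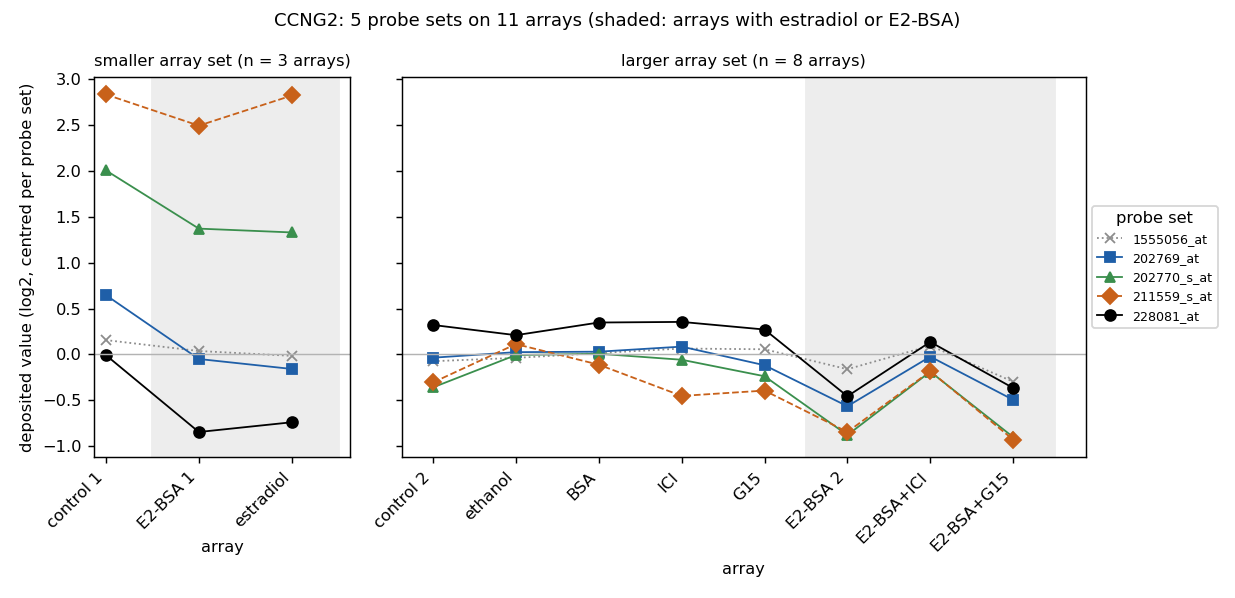
CCNG2 on the 11 arrays. The axes, the array sets and the shading are as in the plot of FBXO32 by array, and each symbol is 1 of 5 probe sets. In the larger set 4 probe sets are lowest with E2-BSA and with E2-BSA and G15, between -0.37 and -0.93, and E2-BSA with ICI lies between -0.19 and 0.14 for the same ones.

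Over both antagonists, CCNG2 gave -0.43 ± 0.12 (SE, adjusted p = 0.172) for 228081_at and -0.40 ± 0.12 (SE, adjusted p = 0.218) for 202770_s_at, and the other 3 probe sets gave -0.24, -0.16 and -0.13. None was called. With G15 the differences were -0.64, -0.66, -0.38, -0.35 and -0.54 for 228081_at, 202770_s_at, 202769_at, 1555056_at and 211559_s_at. With ICI they were -0.22, -0.13, -0.11, 0.03 and 0.27 in the same order. All 5 were negative with G15 and 3 of 5 with ICI.

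Whether the response differed between the antagonists was tested as the response with ICI minus that with G15. No probe set of the array was called (0%), 0 of 54613 by limma and 2271 at an unadjusted p under 0.05. CCNG2 gave 0.80 ± 0.24 (SE, 95% interval 0.28 to 1.33) for 211559_s_at, 0.53 ± 0.24 (SE, 0.01 to 1.05) for 202770_s_at and 0.42 ± 0.24 (SE, -0.10 to 0.94) for 228081_at. FBXO32 gave 0.69 ± 0.26 (SE, 0.14 to 1.25) for 225801_at, 0.51 ± 0.24 (SE, -0.02 to 1.04) for 225328_at and -0.01 ± 0.24 (SE, -0.53 to 0.51) for 225803_at. These intervals are per probe set and none passed the adjustment, so a difference between the antagonists was not shown. The array of E2-BSA alone was used in choosing the genes, and a low value there favours a higher one on any other array, so differences from it are a description only. Against it, 1 array minus 1 array in the larger set, FBXO32 225328_at gave 0.37 for E2-BSA with ICI and -0.29 for E2-BSA with G15. CCNG2 gave 0.59 for 228081_at, 0.69 for 202770_s_at, 0.54 for 202769_at and 0.66 for 211559_s_at with ICI, and 0.09, -0.02, 0.07 and -0.08 with G15. None of the 40 probe sets differed by 1 or more in size in either of these pairs, where 0.0421% (with ICI) and 0.022% (with G15) of all probe sets did. The array of E2-BSA with ICI also had the highest 18S value of the larger set, 0.15, and the part of this in the difference was not tested.

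**Figure D3:**
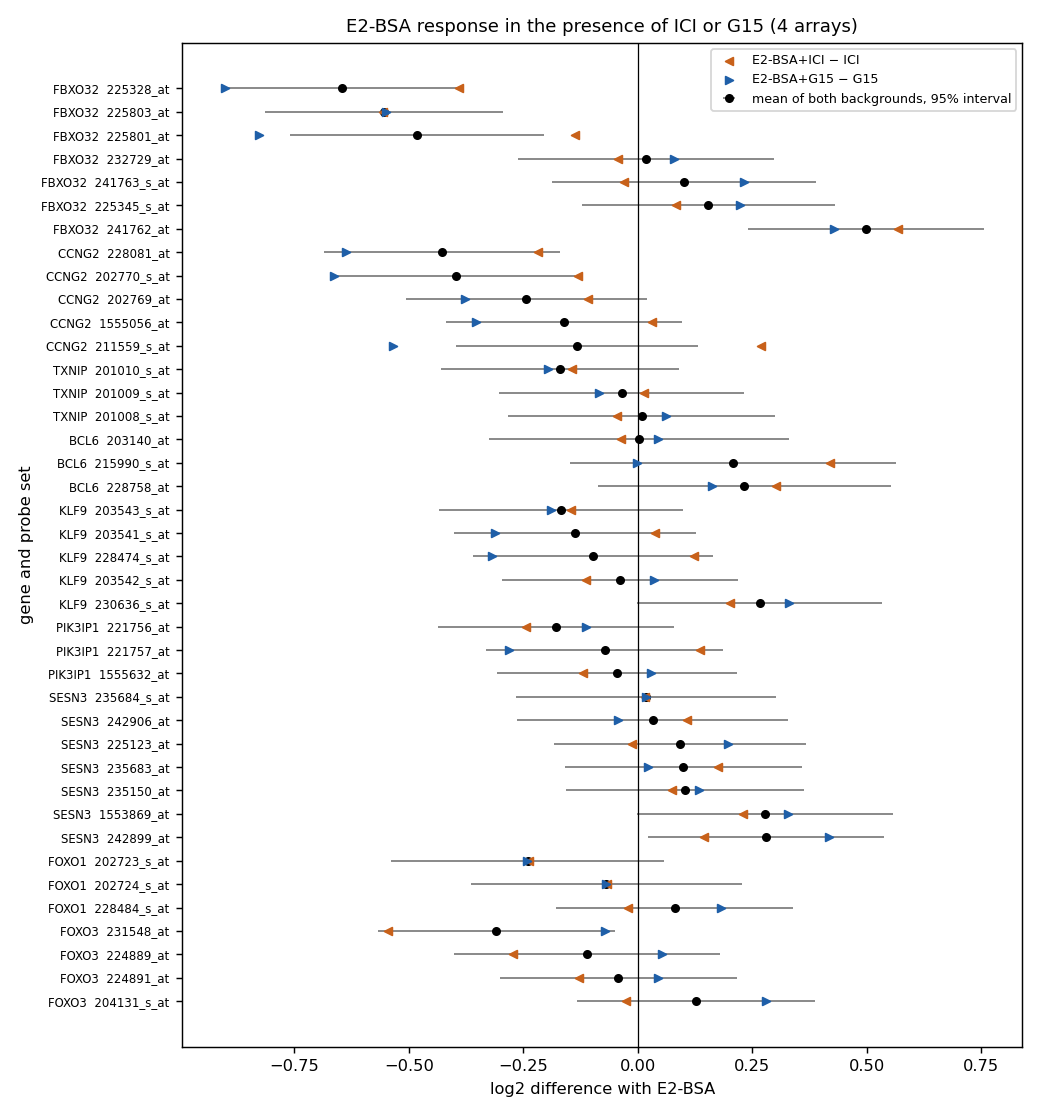
Response to E2-BSA in the presence of an antagonist. Each line on the vertical axis is 1 of the 40 probe sets; the horizontal axis is the log2 difference, with orange triangles for E2-BSA with ICI minus ICI, blue triangles for E2-BSA with G15 minus G15 (1 array minus 1 array), and black points with bars for the mean of both with its 95% interval from limma. FBXO32 225328_at lies lowest at -0.65 and FBXO32 241762_at highest at 0.50, and all 5 CCNG2 points are below 0.

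The remaining 7 genes had values between -0.31 and 0.28 with E2-BSA over the antagonists, and none was called. TXNIP, an inhibitor of thioredoxin and of glucose uptake, gave -0.17 to 0.01 over its 3 probe sets. KLF9, a zinc-finger factor induced by steroid hormones, gave -0.17 to 0.27. PIK3IP1, a membrane inhibitor of PI3K, gave -0.18 to -0.05. SESN3, a stress protein that restrains mTORC1, gave 0.02 to 0.28, above 0 for all 7 probe sets. BCL6, a transcriptional repressor, gave 0.00 to 0.23. FOXO1 itself gave -0.24 to 0.08, and FOXO3 gave -0.31 to 0.13. The median over all 40 probe sets was -0.04, with 22 of 40 below 0, against -0.01 over all probe sets.

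The genes around the pathway were described in the same way, with the probe set of largest SD for each gene. None of the lists held a call over the antagonists, where 0.657% of all named genes were called and their median was -0.02. Of all 19775 named genes, 10987 were below 0. Among other FOXO targets 19 of 29 measured genes were below 0, with a median of -0.12; the lowest p belonged to CITED2, a CBP/p300-binding coregulator, at -0.53 (adjusted p = 0.0835) and to CAT, the peroxide-degrading catalase, at 0.41 (adjusted p = 0.202). In the PI3K and AKT pathway 14 of 23 were below 0, with a median of -0.05, with the receptor ERBB3 at -0.40 and the kinase SGK1 at 0.52. The value for SGK1 came mostly from the G15 pair. SGK1 stood at -0.56 with ICI and -0.52 with E2-BSA and ICI. With G15 it stood at -0.62, and with E2-BSA and G15 at 0.38. The regulators of FOXO proteins had a median of -0.04 over 14 genes, with STK4, a kinase that phosphorylates FOXO proteins, at 0.61 (adjusted p = 0.0641) and the nuclear export receptor XPO1 at 0.34.

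Relatives of FBXO32 and the other members did not pass either. The SCF ubiquitin ligase list had a median of 0.09 over 12 genes, with the F-box genes FBXO31 at 0.35 and FBXO30 at 0.23. Close relatives of the members had a median of -0.11 over 12 genes, with BCL6B at -0.39 and the TXNIP-related arrestin ARRDC4 at 0.31. Genes known to be induced by steroid receptors had a median of -0.04 over 9 genes, with DDIT4, an inhibitor of mTORC1, at -0.49 (adjusted p = 0.107). Luminal markers had a median of 0.05 over 9 genes, with the progesterone receptor PGR at 0.57 (adjusted p = 0.145) and ESR1 at -0.23, and basal, stromal and leukocyte markers a median of 0.01 over 8 genes, with VIM at -0.09 and CD3E at -0.08.

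Free estradiol was set against control in the same way; the control arrays are also those that the choice of the genes used. Of all probe sets 0.167% were called and none of the 40 was. FBXO32 was negative for all 7 probe sets, from -0.85 ± 0.16 (SE, adjusted p = 0.0727) for 241762_at through -0.69 ± 0.16 (SE, adjusted p = 0.199) for 225328_at to -0.07; without the array set as a block the value for 225328_at turned to 0.018. CCNG2 was negative for all 5, with -0.77 ± 0.16 (SE, adjusted p = 0.127) for 202769_at, -0.72 ± 0.16 (SE, adjusted p = 0.160) for 228081_at and -0.65 ± 0.16 (SE, adjusted p = 0.224) for 202770_s_at, which turned to 0.51 without the block. Without control 1, the only untreated array of the smaller set, 225801_at of FBXO32 moved from -0.30 to -0.05. As called changes in the surrounding lists, SGK1 rose by 1.40 (adjusted p = 0.0286) and PGR by 1.15 (adjusted p = 0.0476). Over all probe sets the 91 calls with estradiol went to 0 without the block and to 0 after quantile normalization.

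Estradiol and E2-BSA were matched in dose and time and differ in that E2-BSA carries the hormone on a protein. This was the only pair of related compounds compared. No probe set was called different between them (0%), 0 of 54613 by limma, with 4644 at an unadjusted p under 0.05. In the smaller set, where both were measured, FBXO32 225328_at stood at 0.56 for both. The fitted difference, estradiol minus E2-BSA, was 0.06 for 225328_at (95% interval -0.30 to 0.41), 0.09 for CCNG2 228081_at (-0.25 to 0.43), -0.07 for CCNG2 202770_s_at (-0.41 to 0.27) and 0.16 for FBXO32 241762_at (-0.18 to 0.50). The intervals reach differences of up to 0.50 on the log2 scale, so a moderate difference was not excluded for any of them. The highest value was 0.56 for KLF9 230636_s_at (adjusted p = 0.385) and the lowest was -0.56 for PIK3IP1 1555632_at (adjusted p = 0.385).

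For E2-BSA against control, which the choice of the genes used, the values per set were as follows, as a description. FBXO32 225328_at differed by -0.64 in the smaller and -0.85 in the larger set, 225803_at by -0.56 and -0.67, 241762_at by -1.04 and -0.98, and 225345_s_at by -0.52 and -0.84. CCNG2 228081_at differed by -0.84 and -0.78, 202769_at by -0.70 and -0.53, and 202770_s_at by -0.64 and -0.52. In the fit over all probe sets 6 of these, all but 202770_s_at, passed the threshold, as did 0.276% of all probe sets in that direction; the choice of the genes favours this count, and nothing is read from it. The other FBXO32 probe sets gave -0.63 and -0.30 for 225801_at, 0.01 and -0.34 for 232729_at, and -0.57 and -0.15 for 241763_s_at. The other CCNG2 probe sets gave -0.34 and -0.54 for 211559_s_at and -0.12 and -0.09 for 1555056_at. BCL6 differed between the sets: its 3 probe sets gave 0.67, 1.02 and 0.52 in the smaller set and 0.01, 0.23 and -0.09 in the larger. FOXO1 202723_s_at gave 0.51 and 0.02, and FOXO3 224889_at 0.46 and 0.02.

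**Figure D4:**
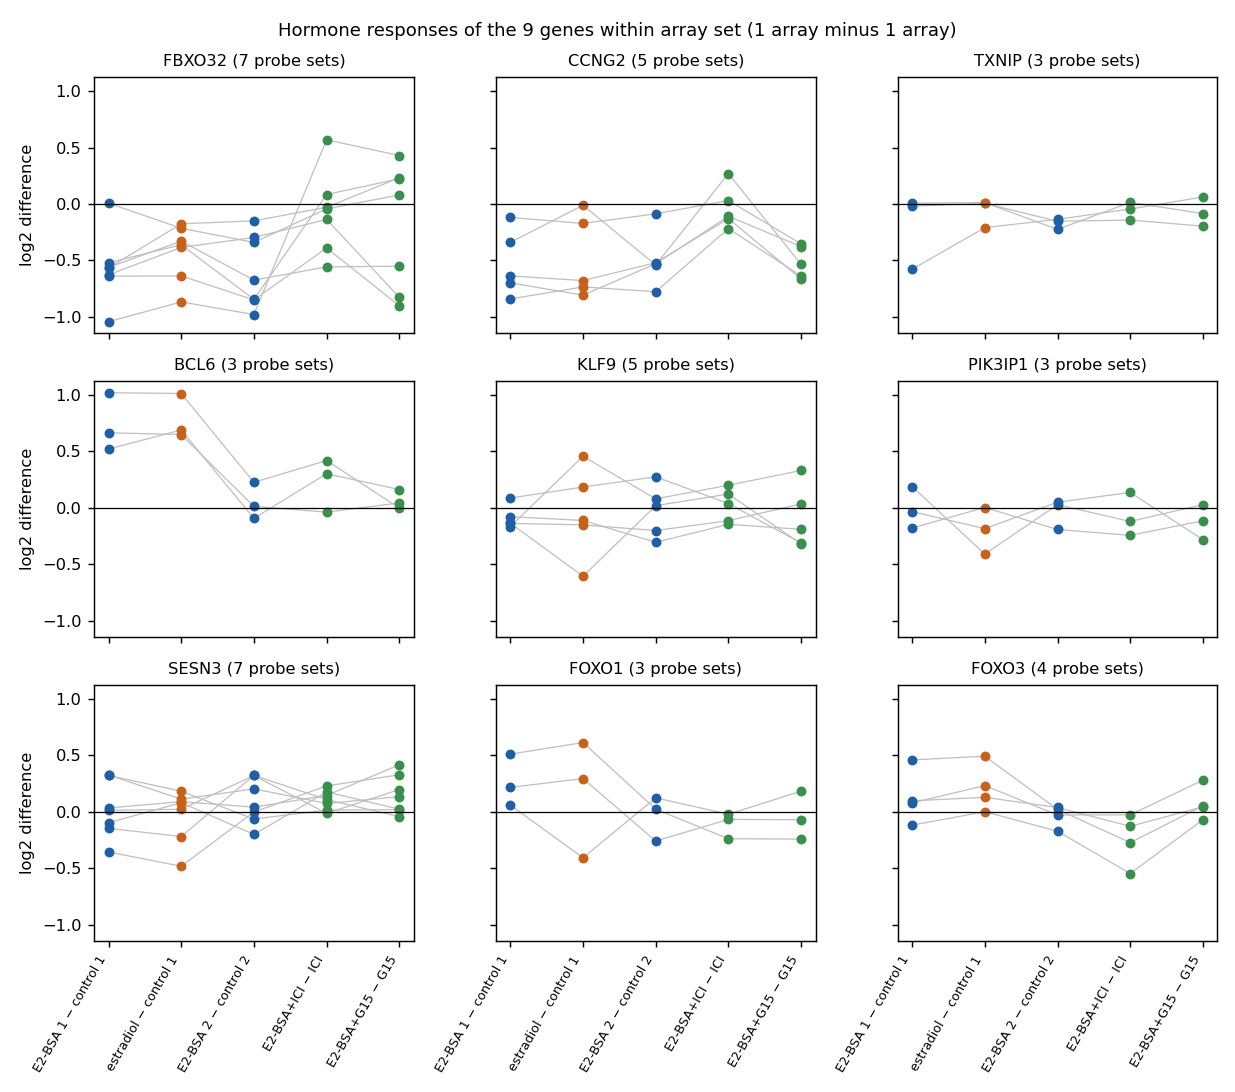
Hormone response of each of the 9 genes within array sets. The vertical axis is the log2 difference of 1 array minus 1 array, the horizontal axis gives the pair of arrays, each point is 1 probe set and grey lines join the points of a probe set; blue marks E2-BSA, orange estradiol and green E2-BSA with an antagonist, and the first 3 pairs use the control of their set. CCNG2 lies below 0 except with ICI, and BCL6 lies between 0.52 and 1.02 in the smaller set and between -0.09 and 0.42 in the larger.

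BCL6 was thus high wherever control 1 was the reference. For 215990_s_at control 1 stood at 0.82, E2-BSA 1 at 1.84 and estradiol at 1.83, and in the larger set control 2 at -0.28, E2-BSA 2 at -0.05, ethanol at -0.03, BSA at -0.13, ICI at -0.39, G15 at -0.03, E2-BSA with ICI at 0.03 and E2-BSA with G15 at -0.04. In the larger set arrays with and without hormone overlapped. Against control, estradiol gave 0.81 ± 0.22 (SE, adjusted p = 0.279) for this probe set and 0.22 without control 1. The 18S and ACTB values that separate the sets are given above, and their part in this was not tested.

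The antagonists alone and the carrier were set against the same controls. No probe set was called with ICI (0%; 0 by limma, 3250 at an unadjusted p under 0.05) or with G15 (0%; 0 by limma, 2643 at an unadjusted p under 0.05), and with BSA 0.0494% were called, none of them among the 40. The 3 FBXO32 probe sets that were low with hormone gave -0.04, 0.28 and -0.01 with ICI, -0.18, -0.12 and 0.13 with G15, and 0.23, 0.33 and 0.26 with BSA, in the order 225328_at, 225803_at and 225801_at. For 241762_at the values were -0.86 ± 0.16 (SE, adjusted p = 0.429) with ICI, -1.39 ± 0.16 (SE, adjusted p = 0.0577) with G15 and -0.75 ± 0.16 (SE, adjusted p = 0.189) with BSA. For 225345_s_at they were -0.66, -0.85 and -0.80, and -0.42, -0.61 and -0.55 without control 2. CCNG2 ranged from -0.10 to 0.27 with ICI, from -0.12 to 0.12 with G15 and from 0.01 to 0.34 with BSA. FOXO1 ranged from 0.13 to 0.39 with ICI and from 0.24 to 0.33 with G15, with no call.

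With ethanol 0.287% of all probe sets were called and none of the 40 was, but some relatives and fellow targets rose. FOXO3 gave 0.42, 0.34, 0.33 and 0.19 and FOXO1 0.40, 0.36 and 0.03, with adjusted p of 0.633 or more. For FOXO3 224889_at control 2 stood at 0.16 and ethanol at 0.48, the highest of the 11 arrays, and the value was 0.75 without control 2. Of the other FOXO targets 3 of 29 measured genes rose and none fell, where 0.526% of all named genes were called, and the list's median was 0.19 against 0.00. These were GADD45A, a growth arrest and DNA damage gene, by 1.82 (adjusted p = 0.000127), the sestrin SESN2 by 1.59 (adjusted p = 0.000540) and the insulin receptor substrate IRS2 by 1.01 (adjusted p = 0.0175). SESN3, the sestrin among the 9 genes, ranged from -0.22 to 0.22.

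Among other relatives, the arrestin genes ARRDC2 and ARRDC3 rose by 1.17 (adjusted p = 0.00649) and 0.95 (adjusted p = 0.0272), making 3 of 12 with SESN2, whereas TXNIP of the same family ranged from -0.12 to 0.26. MDM2, the ubiquitin ligase of p53 and FOXO proteins, rose by 1.05 (adjusted p = 0.0169). Of the genes induced by steroid receptors, DDIT4 rose by 1.08 (adjusted p = 0.0120) and CEBPD by 0.93 (adjusted p = 0.0345), 2 of 9. Each of these rests on a single ethanol array, and over all probe sets the calls with ethanol went from 157 to 0 without the array set as a block and to 12 after quantile normalization.

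The genes whose values ran most nearly like those of FBXO32 were sought over the 11 arrays after removal of the set means. For 241762_at, the FBXO32 probe set of largest SD, they were ENC1 (Pearson r = 0.928), PRP4K (0.925), UBXN2A (0.898), ITPRIPL2 (0.895) and CEP152 (0.893). For 225328_at, a probe set added after its values were seen, they were CITED2 (0.974), DKK1 (0.969), TMEM135 (0.962), ZFP36L2 (0.958) and SMIM14 (0.957). The lists have no gene in common. For DKK1, a secreted inhibitor of Wnt signalling, control 1 stood at 1.27, E2-BSA 1 at 0.32 and estradiol at 0.44, and in the larger set E2-BSA 2 stood at -1.53, E2-BSA with G15 at -1.41 and E2-BSA with ICI at -0.79, with the arrays without hormone between -0.23 and 0.00. These arrays share treatments and sets, so the correlations describe likeness only. CCNG2 228081_at had a correlation of 0.908 with FBXO32 225328_at and of 0.539 with 241762_at.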

How the data were processed

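Total RNA of 11 samples was hybridised to Affymetrix HG-U133 Plus 2 arrays, per the labels' protocols. The authors deposited 1 log2 value for each of 54675 probe sets and array, centred per probe set; the method of summarisation and normalization is not given in the sources used here, nor is the log base, and log2 was read from the size of the values. Array medians lay within 0.0106 of 0. The centring leaves no level, so no filter on low values could be applied and weakly detected probe sets stayed in. The 62 control probe sets were left out. By the platform's annotation 41091 probe sets had 1 gene symbol, 1801 several and 11721 none; 41043 were matched to RefSeq by gene identifier.

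The array sets were read from the 18S control probe sets. Group means with the array set as a block were fitted over all 11 arrays with limma 3.58.1 in R 4.3.3 (lmFit, eBayes; 1 residual and 11.3 prior degrees of freedom), and p-values were adjusted by Benjamini-Hochberg over 54613 probe sets, with calls at an adjusted p under 0.05. Groups of 1 array were assumed to vary like control and E2-BSA. With the block, the residual of a probe set is only how far E2-BSA minus control differs between the array sets. It is not a spread between arrays of 1 condition within a set. Errors are standard errors, intervals 95% confidence intervals. The 2 control and 2 E2-BSA arrays share replicate numbers with the array sets, and deviations from the group means of same-numbered arrays correlated at 0.857. The fit was tested on simulated data.

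The genes, the gene lists and the tests were chosen with earlier results of these data known. Named were all member genes and, of each list, up to 4 called genes or, without a call, up to 2 by lowest p, and the 5 genes most alike to the FBXO32 probe set of largest SD; names beyond that were chosen after their values were seen. Alternatives were no block, quantile normalization, robust eBayes, probe sets with 1 gene, the compared arrays alone, single arrays or pairs left out, the median over a gene's probe sets and, added after seeing the data, a prior by maximum likelihood. Motifs were counted in RefSeq promoter windows of GRCh38.p14.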

Additional observations from a re-analysis of the deposited data

How the results depend on the processing

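FBXO32 225328_at over the antagonists kept its direction under every alternative run and lost its call under 4 of them: -0.65 with an adjusted p of 1 with no replicate block, -0.89 with 0.123 after quantile normalization, -0.65 with 0.0593 over probe sets with 1 gene only and -0.65 with 0.194 on the 4 arrays alone. The adjusted p ranged from 0.0342 to 1. Values with no test were -0.90 without the ICI pair and -0.39 without the G15 pair. Each group compared here has 1 array, and all lie in the larger set. Only quantile normalization or leaving out a pair could therefore change the difference itself. Under the other alternatives its direction was fixed in advance, and nothing is read from its being kept. Calls over the antagonists went from 298 to 0, 0, 111 and 0 in the same order, and calls among the 40 probe sets from 1 to 0 in all 4. With no replicate block and after quantile normalization, calls were 0 and 0 for estradiol, 0 and 12 for ethanol, 0 and 0 for BSA and 0 and 0 for E2-BSA against control, where calls among the 40 probe sets went from 6 to 0 and 0, a count that the choice of the genes favours; limma then had 391 and 9189 probe sets at an unadjusted p under 0.05 over the antagonists, 412 and 822 for estradiol, 417 and 6780 for ethanol, 245 and 6273 for BSA and 339 and 3942 for E2-BSA. On the 4 arrays alone 6081 had such a p. The prior by maximum likelihood, chosen after seeing the data, gave 2 calls for G15, 1 of them FBXO32 241762_at (-1.39, adjusted p = 0.0420). The replicate number as a block on the 4 control and E2-BSA arrays alone gave 359 calls, 6 of them among the 40 probe sets, the same counts as in all 11 arrays. For E2-BSA against control both fits are the same, because groups of 1 array add nothing to the spread. The equal counts are therefore no separate check, and the choice of the genes favours the count of 6.

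Estradiol against control reversed with no replicate block for CCNG2 202770_s_at (0.51) and FBXO32 225328_at (0.018), and, among values that leave out 1 control or E2-BSA array (-0.0025 to 0.65), without control replicate 1 for BCL6 203140_at; ethanol against control reversed with no replicate block for CCNG2 211559_s_at (-1.15). With no block the split between the array sets enters the comparison, since the control mean then spans both sets. Fits without a control or E2-BSA array have no residual degree of freedom and give values only. Signal over background is unknown here.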

Other observations

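Another 3 probe sets, 204132_s_at, 210655_s_at and 217399_s_at, are annotated to both FOXO3B and FOXO3 and were therefore not counted among the 40. None was called in any comparison. Over the antagonists they gave 0.21, 0.19 and 0.10, and with ethanol against control 0.32, 0.65 and -0.02. For 210655_s_at the values were 0.64 with estradiol and 0.56 with E2-BSA 1, against 0.01 for control 1.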
